A study of Mus musculus with 4 samples.

Results

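Distal SCL peaks whose summit window held a GATA motif but neither an E-box nor a composite of CTG and GATA made up 2506 of the 12885 peaks called for SCL in FLK1+ mesoderm, or 19.4%. The total is that of the deposited list, which is longer than the set of SCL-bound loci that the study analysed. GATA-only windows were chosen by sequence and position alone. The summit had to lie more than 1 kb from every annotated transcription start site (TSS). Within 50 bp on either side of it, on either strand, there had to be a GATA motif (A or T, then GATA, then A or G), no full E-box (CA, any 2 bases, TG) and no CTG followed after 7 to 9 bp by GATA. They are called GATA-only peaks here. Enrichment played no part in the choice among the called peaks. Each peak had first been called on its enrichment, so values too low to be called are missing from every class.

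SCL (gene symbol Tal1) binding was mapped by chromatin immunoprecipitation and sequencing in mouse cells of strain background C57Bl/6 X Sv129. The embryonic stem (ES) cells were wild type by the study's text, and the names of the deposited peaks carry J1, an ES cell line. FLK1+ mesoderm cells were sorted from embryoid bodies, which are aggregates of differentiating ES cells, at day 3.5. There were 2 libraries made with an in-house rabbit anti-serum against SCL and 2 input libraries made with no antibody, and both groups came from the same kind of cells. The deposited peaks were called on the merged libraries, so no value of a separate library exists in the list and neither spread between libraries nor any test between groups could be computed. A peak list holds no expression values, so the FLK1+ identity of the cells was not checked against marker genes.

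SCL is a basic helix-loop-helix factor that sets up the blood lineage and is also used in blood vessel cells. It binds E-boxes as a partner of E proteins such as TCF3 and TCF12, and through the bridging proteins LMO2 and LDB1 it joins GATA factors, so that a complex can rest on an E-box, on a GATA motif or on both. In blood cells the classical composite site has CTG, an arm of the E-box, at a short fixed distance before GATA.

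The windows of 9 of the 10 strongest GATA-only peaks, and of the strongest such peak at 6 regulators that the study discusses, show what the rule selects. Each is the plus strand of NCBIM37 (the build also called mm9), 5′ to 3′, centred on the summit, with the GATA motifs that the rule counts in capitals. A motif on the minus strand appears as its reverse complement, so that AGATAA reads TTATCT. Names are those of the gene with the nearest TSS, which is not evidence that the gene is the target.
Ak7 (chr12:106976650-106976750): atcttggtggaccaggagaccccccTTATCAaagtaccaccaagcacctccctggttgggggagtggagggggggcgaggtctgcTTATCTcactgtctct
Cd59a (chr2:103938774-103938874): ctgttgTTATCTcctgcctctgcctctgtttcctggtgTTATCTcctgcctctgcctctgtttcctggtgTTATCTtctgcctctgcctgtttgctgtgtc
Zdhhc19 (chr16:32509785-32509885): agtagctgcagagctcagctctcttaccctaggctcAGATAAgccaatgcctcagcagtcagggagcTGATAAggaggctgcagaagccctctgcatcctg
Kdr (chr5:76358353-76358453): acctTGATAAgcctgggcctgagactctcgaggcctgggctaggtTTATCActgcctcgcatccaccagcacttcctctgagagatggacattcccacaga
Hdgf (chr3:87705284-87705384): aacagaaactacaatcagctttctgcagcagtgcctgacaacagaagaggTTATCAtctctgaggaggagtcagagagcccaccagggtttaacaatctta
Exoc6b (chr6:84833306-84833406): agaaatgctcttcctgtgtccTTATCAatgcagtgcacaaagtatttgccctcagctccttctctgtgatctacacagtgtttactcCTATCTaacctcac
Rap1a (chr3:105611571-105611671): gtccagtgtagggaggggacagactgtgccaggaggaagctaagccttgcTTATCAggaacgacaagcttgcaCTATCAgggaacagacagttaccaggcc
Ap1m1 (chr8:74792319-74792419): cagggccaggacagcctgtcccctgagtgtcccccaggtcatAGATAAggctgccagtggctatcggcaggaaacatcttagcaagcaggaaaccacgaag
Alas2 (chrX:146984305-146984405): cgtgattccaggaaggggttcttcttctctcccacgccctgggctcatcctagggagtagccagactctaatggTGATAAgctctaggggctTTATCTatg
Runx1 (chr16:92715913-92716013): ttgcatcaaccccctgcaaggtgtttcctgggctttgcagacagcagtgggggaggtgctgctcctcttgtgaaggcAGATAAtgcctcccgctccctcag
Zfpm1 (chr8:124833367-124833467): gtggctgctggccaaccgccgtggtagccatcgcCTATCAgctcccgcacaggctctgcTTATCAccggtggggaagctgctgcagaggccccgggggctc
Ikzf1 (chr11:11629368-11629468): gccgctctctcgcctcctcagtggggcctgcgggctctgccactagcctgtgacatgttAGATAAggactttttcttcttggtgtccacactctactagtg
Ikzf2 (chr1:69542727-69542827): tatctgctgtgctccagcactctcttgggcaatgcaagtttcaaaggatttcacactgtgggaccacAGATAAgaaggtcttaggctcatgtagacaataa
Rybp (chr6:100238453-100238553): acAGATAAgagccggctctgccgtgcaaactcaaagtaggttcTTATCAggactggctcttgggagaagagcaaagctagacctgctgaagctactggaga
Fli1 (chr9:32313859-32313959): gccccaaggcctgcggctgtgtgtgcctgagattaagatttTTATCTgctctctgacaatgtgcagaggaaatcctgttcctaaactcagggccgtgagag

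These windows differ in how the motif is laid out. The Cd59a window holds AGATAA in each of 3 tandem copies on the minus strand, with 32 bases from the start of one motif to the next, and all 32 bases were the same in the first and the second unit. The windows near Kdr, Ak7, Zdhhc19, Alas2 and Rybp hold 2 motifs that end in GATAA, whereas those near Hdgf, Ap1m1, Runx1, Ikzf1, Ikzf2 and Fli1 hold 1.

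Distal peaks numbered 11793, and GATA-only peaks were 21.2% of them (Wilson 95% confidence interval 20.5% to 22.0%). Windows of equal length were taken 1 kb to either side of every distal summit, without the TSS limit. The motif part of the rule picked 2331 of these 23586 windows, or 9.88% (9.51% to 10.3%). The summit share was 2.15 times that of the flanks. For comparison, composite windows with CTG before GATA at the spacing above were 32.9% of distal summits and 3.10% of flanks, a ratio of 10.6. Windows with GATA and a separate E-box were 23.6% and 6.48%, a ratio of 3.64. The ratio was 0.367 for windows with an E-box but no GATA and 0.207 for windows with neither. GATA-only windows were thus more frequent at summits than beside them, by less than the other classes that hold GATA.

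Fold enrichment is the ratio of stacked ChIP fragments to the local background at the summit, with 1 added to both, as the peak caller gave it. Over GATA-only peaks its median was 10.8 (order-statistic 95% interval 10.5 to 11.2). Its quartiles were 7.86 and 18.4, and single peaks ran from 1.34 to 228.0. Composite peaks had a median of 13.3 (12.9 to 13.7), and peaks with GATA and a separate E-box 11.4 (11.1 to 11.8). Peaks with an E-box but no GATA had 9.46 (9.17 to 9.90), and those with neither 9.01 (8.69 to 9.32). The interval of the GATA-only peaks lay below that of the composites and above those of both classes without GATA, and overlapped slightly that of the peaks with GATA and a separate E-box. The difference from peaks with an E-box but no GATA was 1.31 (0.814 to 1.81), and 0.802 with a window of 25 bp on each side. Among peaks with a fold of at least 10 the interval of this difference reached below 0 (-0.152 to 1.93). These intervals cover the spread among peaks of 1 pooled list and not that between cultures.

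**Figure D1:**
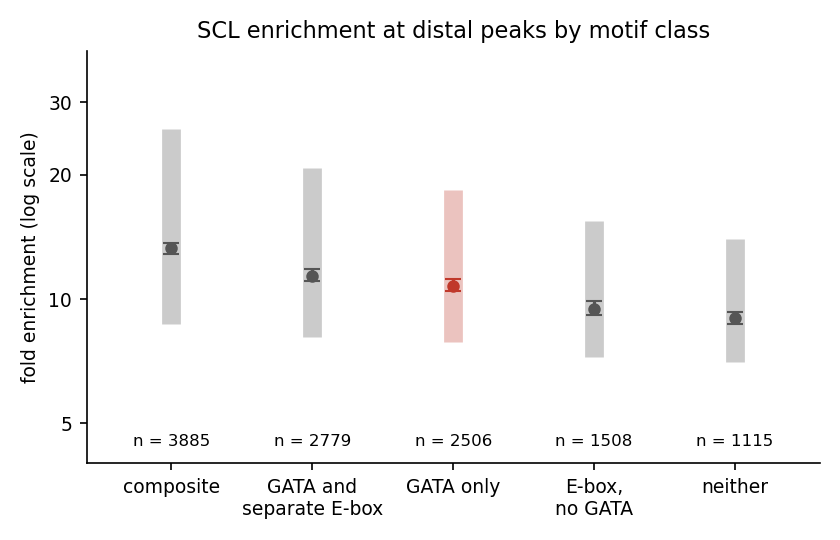
Fold enrichment (log scale) of distal SCL peaks in the 5 motif classes. Points are medians with order-statistic 95% intervals, pale bars run from the lower to the upper quartile, and GATA-only peaks are in red, with a median of 10.8 between 13.3 for composites and 9.01 for peaks with neither motif.

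The upper tail differed more than the middle. A fold of at least 10 was reached by 1394 GATA-only peaks, 55.6% of them (53.7% to 57.6%), where 56.6% of all peaks and 66.0% of composites reached it. A fold of at least 50 was reached by 125, or 4.99% (4.202% to 5.91%), where 7.26% of all peaks and 11.4% (10.5% to 12.5%) of composites reached it. GATA-only peaks supplied 0 of the 10 strongest peaks of the whole list, 13 of the 100 strongest and 140 of the 1000 strongest, against their 19.4% share of the list. Composites supplied 4, 49 and 469.

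The depth behind these values was moderate. The median number of fragments stacked at a GATA-only summit (pileup) was 52, for which an exact Poisson 95% interval runs from 38.8 to 68.2, over a median background of 3.67 fragments. At the lower quartile of 36 fragments the interval ran from 25.2 to 49.8, and at the upper quartile of 90 from 72.4 to 110.6, counting error only. The median pileup was 60 for composites and 48 for peaks with an E-box but no GATA. The median −log10 p of the peak caller was 38.8 for GATA-only peaks, 50.4 for composites and 33.0 for peaks with an E-box alone, so that all 3 measures placed the GATA-only class between these. Median width, 399.5 bp, was close to the 399 bp of composites. Over the 2506 GATA-only peaks, wider peaks had higher folds (Spearman's rho 0.422, a description over peaks of 1 list, and 0.419 over all peaks).

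At 3 GATA-only peaks the local background exceeded 10 times the median of the list. The peak near Gm10800 on chromosome 2 had 7114 fragments over a background of 4707, a fold of 1.51. The peak near Chl1 had 6938 over 5191, a fold of 1.34, the lowest of the class. The peak near Dlgap2 had a fold of 11.3 over a background of 61.8. Median background also varied by chromosome, at 5.24 fragments for GATA-only peaks of chromosome 8 and 4.72 for those of chromosome 1, against 2.43 for those of the X chromosome, which is the lowest level the peak caller used.

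The member closest to the TSS limit, near Megf9 at 1015 bp, had a fold of 6.21, and the next, near Cdc14b at 1021 bp, had 8.29. Just inside the limit and so left out were peaks near Cmas at 999 bp with a fold of 26.4, near A930019D19Rik at 995 bp with 8.13 and near Ssx2ip at 993 bp with 23.9. The median fold was 11.4 for the 10 members up to 100 bp beyond the limit and 9.67 for the 15 summits left out that met the motif rule up to 100 bp within it. Members with CTG 10 bp before GATA, just outside the composite spacing, had a median fold of 11.5 (n = 268). Composite peaks with CTG 9 bp before GATA, no pair at 7 or 8 bp and no E-box had 13.3 (n = 985).

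GATA factors are zinc finger proteins, and GATA2 and GATA1 are those best known in early blood cells, whereas GATA4, GATA5 and GATA6 act in heart and endoderm. All recognise the same core, so the motif does not tell which factor was present. AGATAA was in 62.4% of GATA-only windows (60.5% to 64.3%) and in 34.5% (32.6% to 36.5%) of flanking windows that met the same motif rule. TGATAA was in 27.5% (25.8% to 29.3%) and 24.8% (23.1% to 26.6%), and these intervals overlapped. The versions ending in G were less frequent at summits, AGATAG in 21.9% of GATA-only windows against 30.8% of flanks and TGATAG in 10.5% against 18.8%. The longer form AGATAAG was in 35.8% (34.0% to 37.7%) against 8.92% (7.83% to 10.1%). AGATAA had the highest share of the 4 versions in both sets, in the flanks with an interval that overlapped that of AGATAG (29.0% to 32.8%).

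The bases next to the motif differed too. Over 3188 motifs in GATA-only windows, the motif was followed by G in 48.3% (46.5% to 50.01%) against 22.0% of 2714 motifs in flanking windows. It was preceded by T in 12.3% (11.2% to 13.5%) against 29.3%, and by C in 35.01% against 22.5%. In composite windows the same values were 46.4% for a following G, 13.1% for a preceding T and 36.6% for a preceding C. The GATA-only windows thus resembled the composites in these bases more than they resembled the flanks. Every motif of a window was counted, and 35 of the 2331 flanking windows held 4 or more. The part of repeated motifs in the flank values was not tested. AGATAA itself was in 59.7% of those composite windows that held the full motif.

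Most GATA-only windows had a single motif. There was 1 in 1730 windows (69.0%), 2 in 663 (26.5%), 3 in 101 (4.03%) and 4 or more in 12 (0.479%). At least 2 motifs were in 31.0% (29.2% to 32.8%) of GATA-only windows and in 12.7% (11.4% to 14.1%) of flanking windows of the rule, although 4 or more were in 1.50% of the flanks. The share depends on the rule, at 11.5% with a window of 25 bp on each side, 49.3% with 100 bp and 14.5% with AGATAA as the sole motif. The share with at least 2 was 33.2% in composite windows with the full motif and 26.1% (24.5% to 27.8%) in windows with GATA and a separate E-box. Median fold was 10.3 (10.1 to 10.6) at windows with 1 motif and 12.0 (11.4 to 13.2) at those with 2. At the 113 windows with 3 or more it was 12.3 (11.1 to 15.0). Windows with 1 motif lay below both others, whose intervals overlapped.

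The 776 windows with more than 1 motif gave 1042 pairs. The motifs of a pair lay on the same strand in 53.2% (50.1% to 56.2%), faced each other in 25.8% and pointed apart in 21.02%. No spacing held many windows. The most frequent were motifs of the same strand that shared 1 base, in 24 windows, and motifs facing each other with 35 bp between them, in 23.

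Among windows with a single motif, the version made little difference to enrichment. Median fold was 10.5 for AGATAA (n = 962), 10.4 for TGATAA (n = 403), 10.1 for AGATAG (n = 244) and 9.67 for TGATAG (n = 121), and all 4 intervals overlapped.

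The motif nearest the summit had its centre a median of 17.5 bp away, with quartiles of 8.5 and 28.5 bp. In flanking windows of the rule the distance to the window's centre was 21.5 bp. It was 15.5 bp in composites and 18.5 bp in windows with GATA and a separate E-box. A motif centre lay within 20 bp in 55.5% (53.5% to 57.4%) of GATA-only windows against 46.5% (44.5% to 48.5%) of the flanks. At least 2 motifs were in 31.0% of GATA-only windows and 12.7% of these flanks, and more motifs bring the nearest one closer. The distances were not separated by motif number. Median fold was 11.03 where the motif lay within 10 bp and 10.1 (9.61 to 10.7) where it lay beyond 30 bp, with overlapping intervals.

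**Figure D2:**
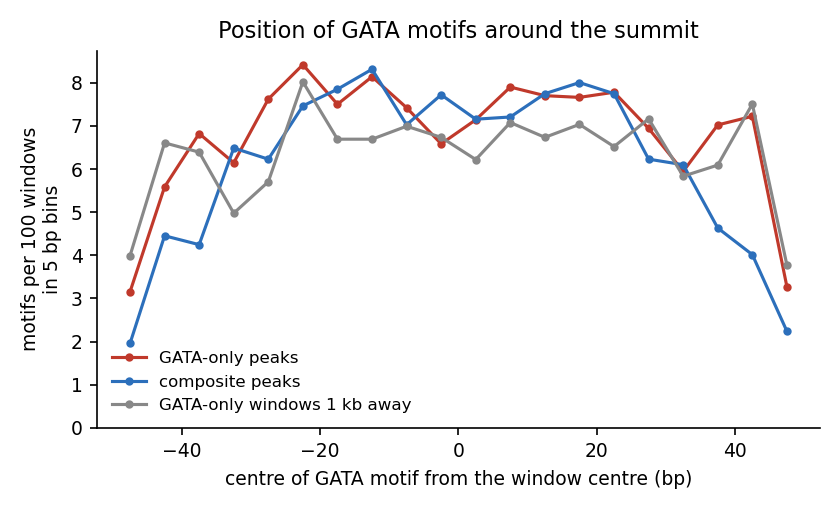
GATA motifs per 100 windows in bins of 5 bp (vertical axis) by the distance of the motif's centre from the window's centre in bp (horizontal axis). Outside the bins at each end the rate runs from 5.59 to 8.42 in GATA-only peaks (red), from 4.02 to 8.31 in composite peaks (blue) and from 4.98 to 8.02 in windows 1 kb away (grey), and the end bins are lower in all 3, where a motif had to lie whole within the window.

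The rule removes CTG at 7 to 9 bp before GATA, which leaves the neighbouring spacings to be read. CTG 10 bp before GATA was in 268 GATA-only windows, 10.7% (9.54% to 12.0%), and in 2.79% of flanking windows of the rule. At the other spacings from 0 to 20 bp the share in GATA-only windows ran from 1.08% to 6.30%, with a median of 4.75%. The range in the flanks was 1.12% to 3.95%, with a median of 2.45%. With GATA before CTG the shares in GATA-only windows ran from 1.08% to 4.91%, with no spacing standing apart. The spacing of 10 bp was thus more frequent than any other that the rule allows, and it was as frequent in windows with GATA and a separate E-box, at 10.4%. Median fold was 11.5 (10.2 to 12.5) with the pair at 10 bp and 10.7 (10.4 to 11.1) without it, so the intervals overlapped. Among the windows printed above, those near Rap1a, Zfpm1, Ikzf1 and Ikzf2 hold this pair.

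**Figure D3:**
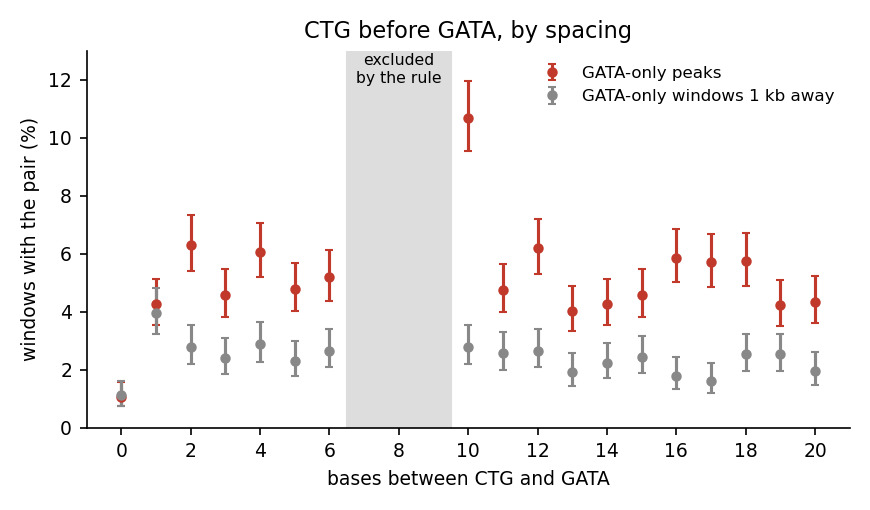
Share of windows (%) with CTG before GATA on the same strand, by the number of bases between them, with Wilson 95% intervals. GATA-only peaks are in red, and windows 1 kb away that met the same motif rule are in grey. Apart from the shaded spacings of 7 to 9 bp, which the rule excludes, 10 bp is the highest at 10.7%.

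The absence of an E-box holds for the window only. From 51 to 150 bp from the summit an E-box was present at 63.5% (61.6% to 65.4%) of GATA-only peaks, and in either of the windows 1 kb away at 67.2%. Over the whole peak it was present at 80.1%. The composite was present at 51 to 150 bp at 10.9% (9.70% to 12.1%) of GATA-only peaks, against 6.42% (5.53% to 7.45%) in the windows 1 kb away, and at 538 (21.5%) over the whole peak. Median fold was 12.2 (10.7 to 14.0) where a composite lay at 51 to 150 bp and 10.6 (10.4 to 11.1) where none did, and these intervals overlapped. With an E-box at that distance it was 10.6 and without one 11.1.

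Other motifs were counted by their core letters on both strands, which is a description of the sequence and names no factor as bound. GGAA, the core of ETS sites, was in 79.2% (77.6% to 80.8%) of GATA-only windows, in 65.9% (64.6% to 67.2%) of their own flanking windows and in 73.1% of composites. It was in 82.7% (80.7% to 84.5%) of windows with an E-box but no GATA and in 83.3% (81.02% to 85.4%) of those with neither. ETS factors such as FLI1, ERG and ETV2 act with SCL in blood and endothelium. The RUNX core TGTGGT was in 10.1% against 7.64% of the flanks, and CACCC, read by KLF and SP factors, in 24.1% against 19.0%. TGACAG, a MEIS core, was in 9.90% (8.79% to 11.1%) against 7.34%, and in 11.7% (11.1% to 12.4%) of the other distal windows. CATTCC, a TEAD core, was in 9.34% (8.26% to 10.5%) against 6.21% (5.57% to 6.91%), and in 7.18% (6.67% to 7.73%) of the other distal windows. TGANTCA, the AP-1 site, was in 4.55% (3.80% to 5.44%) against 3.01%, and in 5.34% (4.90% to 5.82%) of the other distal windows. ACAAT, a SOX core, was lower at the summit, in 14.8% against 16.9%, with intervals that overlapped, and TAAACA, a FOX core, was in 7.06% against 7.12%. CTG alone was in 2505 of the 2506 windows and in 97.5% of the flanks, so its presence at no fixed spacing separates little. TGANTCA reads the same on both strands, and GGAA or CACCC can share bases with other motifs of a window.

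**Figure D4:**
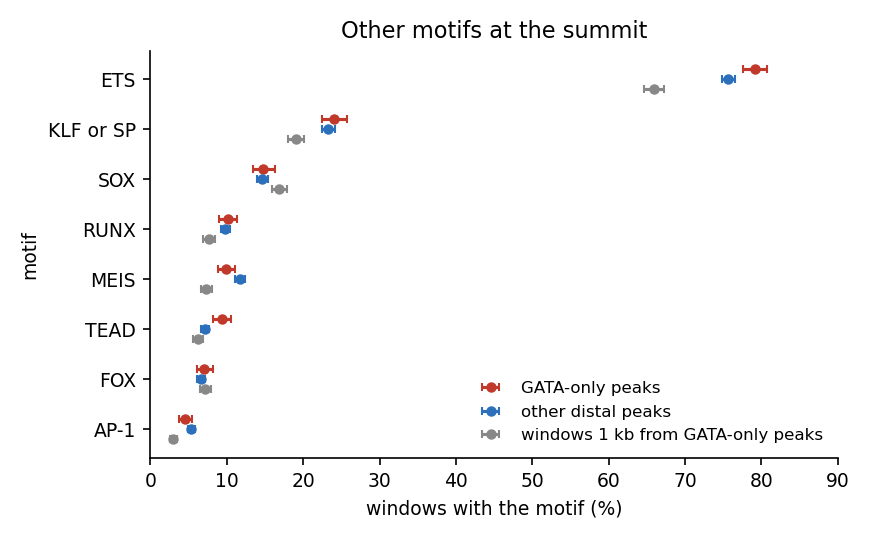
Share of windows (%) holding the core letters of 8 further motifs, with Wilson 95% intervals, in GATA-only peaks (red), other distal peaks (blue) and windows 1 kb from GATA-only peaks (grey). The ETS core is the most frequent, in 79.2% of GATA-only windows and 65.9% of their flanks.

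None of these motifs went with a marked difference in enrichment among GATA-only peaks. Median fold was 10.8 with GGAA and 10.6 without it, 10.6 and 10.8 for TGTGGT, and 11.6 (10.4 to 12.8) and 10.7 (10.4 to 11.1) for CATTCC, with overlapping intervals each time. Median GC was 50.5% in GATA-only windows and in composites. At least 1 CpG was in 68.1% (66.2% to 69.9%) of GATA-only windows against 63.6% (62.1% to 65.1%) of composites, and these intervals did not overlap.

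GATA-only peaks lay in introns in 1091 cases (43.5%) and between genes in 1373 (54.8%). A further 19 summits lay in exons that hold a UTR and 23 in other exons. The median distance to the nearest TSS was 23.5 kb (21.9 to 25.4), where that of composites was 23.2 kb. The TSS was within 10 kb for 28.8% and beyond 100 kb for 16.0%, and the summit was upstream of it for 49.0%. Fold was unrelated to this distance over the 2506 peaks (Spearman's rho 0.015). Median fold was 11.2 at 1 to 5 kb and 11.05 beyond 100 kb. By chromosome, GATA-only peaks were between 18.01% of distal peaks on chromosome 13 and 25.2% on chromosome 17, and 0 of 5 on the Y chromosome.

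Another SCL summit lay within 10 kb of 788 GATA-only peaks, 31.4% (29.7% to 33.3%), which compares with 29.1% (27.7% to 30.6%) of composites and 31.0% of all distal peaks. The nearest of these was a composite peak for 227 (28.8%) and another GATA-only peak for 180 (22.8%), where these classes are 30.2% and 19.4% of the list. It had the higher fold in 417 of 788 cases (52.9%).

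**Figure D5:**
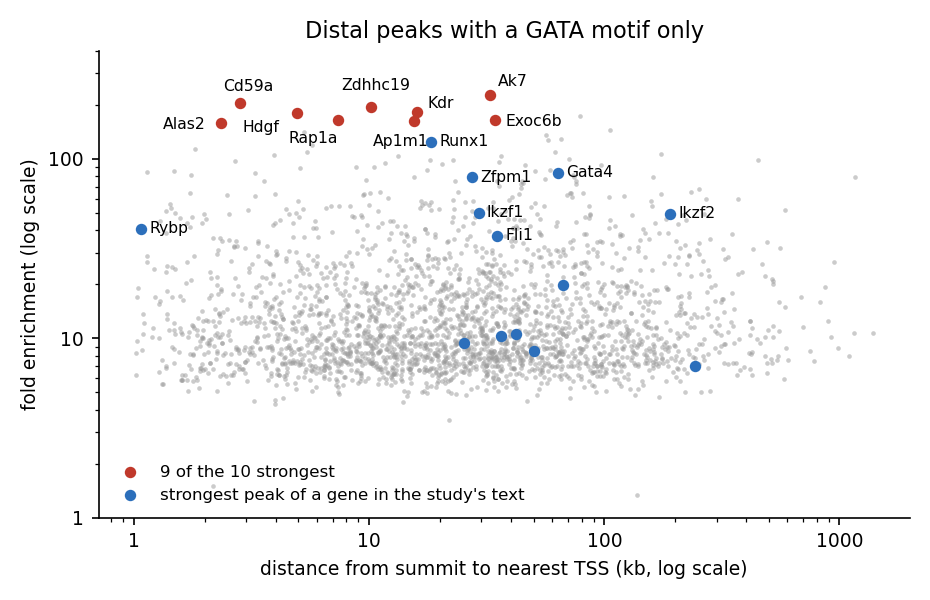
Fold enrichment (log scale) of each of the 2506 GATA-only peaks (grey) by the distance from its summit to the nearest TSS in kb (log scale). Red points are 9 of the 10 strongest, between 158.7 and 228.0, and blue points the strongest GATA-only peak of regulators that the study discusses, which run from 6.998 for Cdh5 to 123.8 for Runx1.

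The strongest GATA-only peak (chr12:106976478-106977353) lay in an intron of Ak7, an adenylate kinase gene, 32508 bp downstream of the nearest TSS. Its fold was 228.0 (215.2 to 241.4 from counting error), with 1183 fragments, and 13 peaks of the whole list were stronger. The next (chr2:103938520-103939183) lay in an intron of Cd59a, a complement inhibitor on red cells, with a fold of 204.5 (192.4 to 217.2). The TSS of Lmo2, the bridging protein of the SCL complex, was 127488 bp from it. The third, in an intron of Zdhhc19 (chr16:32509158-32510254), had a fold of 194.8 (183.2 to 206.9). The TSS of Tfrc, the transferrin receptor through which red cells take up iron, was 99171 bp away. These distances say nothing of which gene a peak serves.

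The fourth lay 16050 bp inside Kdr (chr5:76358176-76358882), which encodes FLK1, the receptor used to sort these cells. Its fold was 182.8 (171.9 to 194.2), with 1044 fragments. Its summit is in an exon of a transcript annotated as a retained intron, and in an intron of the coding transcripts. It was the single GATA-only peak among 10 distal peaks nearest to Kdr. The peak in an intron of Alas2 (chrX:146984071-146984614), which encodes the heme synthesis enzyme of red cells, was 2353 bp from the TSS and had a fold of 158.7 (145.7 to 172.6). Its background was at the floor, so its 544 fragments were fewer than at any other of the 10. Others of the 10 lay near Hdgf, Exoc6b, Rap1a and Ap1m1, with folds from 163.2 to 179.1.

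A total of 2045 genes were nearest to at least 1 GATA-only peak, 7.80% of the 26212 genes annotated. Of these 1676 were nearest to exactly 1, 304 to 2 and 65 to 3 or more. Runx1, the runt factor required for blood stem cells to form, had the most, with 7 of its 16 peaks. The strongest of these lay in an intron (chr16:92715668-92716602) with a fold of 123.8 and 642 fragments. The next, also in an intron, 3576 bp from a TSS (chr16:92822308-92822954), had 75.3. The other folds were 22.8, 19.7, 17.5, 16.0 and 9.41, and 3 of the 7 lay between genes at 170923 to 371450 bp from the TSS.

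Rreb1, a zinc finger gene, was nearest to 6 GATA-only peaks, with folds of 6.86 to 16.8. Cyp26a1, which breaks down retinoic acid, was nearest to 5. Their folds were 79.4, 57.8, 34.4, 22.3 and 7.05, at 5879 to 160839 bp downstream, and 4 of them lay within 21526 bp of the TSS. Dusp4, a MAP kinase phosphatase, was nearest to 5, of which 1 had a fold of 64.6 and the others 6.52 to 10.3. Cntnap2, Gse1 and Gm4906 also had 5, and Sox7, Bcor and Kalrn had 4.

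Of 14 genes of the SCL complex itself, 12 were nearest to some peak and 3 (21.4%) to a GATA-only peak, where 7.80% of all genes were. These were Tcf12, an E protein, with a fold of 14.6 (11.3 to 18.4), Cbfa2t3, the corepressor ETO2, with 9.47, 6.79 and 5.84, and Gata2 with 6.74 (4.73 to 9.34). Tal1, Lmo2, Ldb1, Lyl1 and Gata1 were nearest to none. GATA-only peaks were 5 of the 32 distal peaks at these genes (15.6%, beside 21.2% of all distal peaks), with a median fold of 6.79 beside 10.8.

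Of 20 blood transcription factors 9 were nearest to a GATA-only peak, and such peaks were 21 of 64 distal peaks there (32.8%), with a median fold of 19.5, where GATA-only peaks were 21.2% of all distal peaks and had a median of 10.8. Runx1 supplied 7 of the 21. Myb, needed for definitive blood progenitors, had a peak of 96.6 (88.7 to 105.0) at chr10:20916382-20916925, 35787 bp upstream of the TSS. Zfpm1, the GATA1 cofactor FOG1, had 78.7, 18.1 and 5.05. Ikzf1, the lymphoid factor Ikaros, had 49.9, 45.1 and 8.28, and Ikzf2 had 49.6 and 10.6. Fli1, an ETS factor, had 37.1 and 10.3, Hhex 19.5, Mecom 11.5 and Erg 9.45. Gfi1b, Etv6, Runx2, Klf1, Nfe2 and Sfpi1 (the myeloid factor PU.1) had peaks but none of the class.

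Of 26 endothelial genes 8 were nearest to a GATA-only peak, at 17 of 93 distal peaks (18.3%), with a median fold of 10.3, against the same 21.2% and 10.8. Kdr led with the peak described above. Sox7, a SOXF factor, had 74.9 (69.7 to 80.3), 42.1, 27.6 and 8.12, and the strongest lay in an intron of Pinx1. Flt1, a decoy receptor for VEGF, had 28.1 and 7.01. Sox17 had 25.4 and 8.40. Efnb2, the arterial ephrin, had 3 at 9.41 to 10.3 and Cdh5, the junction cadherin, had 6.998 and 4.99. Red cell genes numbered 21, and 4 were nearest to a GATA-only peak. These peaks were 4 of 23 distal peaks there (17.4%, beside 21.2% of all distal peaks). Among them Alas2 had 158.7, Gypc, the glycophorin C gene, 10.8 and the embryonic globin gene Hbb-bh1 10.6.

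Of 26 cardiac genes 10 were nearest to a GATA-only peak, at 16 of 52 distal peaks (30.8%), with a median fold of 16.3, again against 21.2% and 10.8. Gata4 had 83.4 (75.2 to 92.3) at chr14:63953911-63954620, 63587 bp upstream of the TSS, and a weaker one in an intron. Nkx2-5, a homeodomain factor of the early heart, had 47.7 (42.0 to 53.9). Tbx5 had 40.9, 30.8 and 7.96, and Hand2 31.9 and 8.35. Gata6, Isl1, Hand1 and Tnnt2 were nearest to no peak of any class, and Mesp1 and Foxc1 only to peaks of other classes. Of 26 primitive streak and paraxial mesoderm genes 6 were nearest to a GATA-only peak (23.1%, where 7.80% of all genes were). Such peaks were 7 of 18 distal peaks there (38.9%, beside 21.2% of all distal peaks). Their median fold was 7.96, beside 10.8 for all GATA-only peaks, and no fold there was above 11.4. The genes were Wnt3a with 11.4, Eomes with 11.2 and 7.05, the Brachyury gene T with 8.35, Uncx with 7.96, Mixl1 with 6.93 and Cdx2 with 5.61. Tbx6 and Irx3 had no nearest peak of any class when each peak went to its nearest annotated TSS. The study assigned peaks otherwise and counts Gata6, Tbx6 and Irx3 among the direct targets of SCL. It gave a peak to Tbx6 as the closest gene with changed expression.

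Of 25 Polycomb genes 4 were nearest to a GATA-only peak, at 10 of 53 distal peaks (18.9%, beside 21.2% of all distal peaks). Bcor, a subunit of variant PRC1, had 54.9 (47.5 to 63.2), 15.4, 14.0 and 6.86. Rybp had 40.9 (36.0 to 46.2), 18.4 and 6.99, and the strongest of these was 1068 bp upstream of its TSS. Phc2 had 11.4 and Pcgf5 10.6 and 8.78. Among these 7 lists the share of genes with a GATA-only peak ran from 16.0% for Polycomb to 45.0% for blood transcription factors. All were above the 7.80% of all genes. That base counts all 26212 genes annotated, of which 6946 were nearest to a peak of any class and 2045 to a GATA-only peak. Lists were chosen with results of these data known, so these shares describe the lists and single out nothing about the GATA-only class.

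The strongest GATA-only peaks of Zfpm1, Cbfa2t3, Gse1, Foxc2 and Cdh5 lie on chromosome 8, where the background was raised as given above, and those of the first 4 lie in introns of Gm20388, a gene model that spans several neighbours. Those of Dusp4, Hand2, Efnb2 and Ap1m1 are on the same chromosome. The local background enters the denominator of the fold, and the part of the raised background in these values was not tested.

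The study also lists genes activated and repressed by SCL, chosen on these libraries together with expression data, so their overlap with SCL peaks is not independent evidence. Of GATA-only peaks, 274 were nearest to an activated gene, 10.9% (9.77% to 12.2%), and of other distal peaks 10.8% (10.2% to 11.5%). At repressed genes there were 104, 4.15% (3.44% to 5.004%), against 3.65% (3.29% to 4.05%). Both pairs of intervals overlapped. A GATA-only peak was nearest to 190 of 511 activated genes (37.2%) and to 73 of 262 repressed genes (27.9%), where 7.80% of all genes had one. The study required an SCL peak of the genes on both lists, and 479 of the 511 and 218 of the 262 were nearest to a peak of any class. Of the distal peaks at these genes, GATA-only peaks were 21.4% at activated and 23.5% at repressed genes, beside 21.2% of all distal peaks.

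Median fold of GATA-only peaks was 13.1 at activated genes and 10.6 at the others. Composites had 18.6 at activated genes and 12.9 elsewhere. At repressed genes the GATA-only median was 10.2, against 10.8 at the other genes. The GATA-only class therefore had its higher values at activated genes, as did each of the other 4 distal classes, and whether the class differs from the others in this was not tested.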

How the data were processed

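Binding was measured in 2 SCL ChIP and 2 input libraries of FLK1+ cells at day 3.5. Per the paper's methods and the submitters' processing notes, the authors aligned reads to mm9 with Bowtie 1.1.2, called peaks with MACS2 2.0.10 on merged replicates and chose the final list by the irreproducible discovery rate. The deposited list gives the fold (the ratio to local background as defined above), the −log10 p, the −log10 q and a score for each peak. The score was not used. Library depths are not given in the sources used here. Pileup and background were solved from fold and −log10 p together, which matched the authors' value to within 0.001 in 99.9% of peaks. Sequence and genes came from NCBIM37 and GENCODE vM1 (75530 TSSs of protein-coding, lincRNA and processed transcripts). Python 3.11.15, numpy 2.4.6, scipy 1.17.1, pandas 2.3.3 and pysam 0.24.0 were used, and the motif and distance scripts were tested on simulated data.

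With 1 pooled list no test was run. Shares have Wilson 95% intervals, medians order-statistic intervals and pileups exact Poisson intervals, none of which holds variation between cultures. Peaks and lists were chosen with earlier results of these data known. Named are the 10 strongest peaks, the 10 genes nearest to most, up to 4 genes a list by strongest peak, genes of the study's text, and, chosen after their values were seen, other genes that complete a list or a count. Sequences of text genes under a fold of 35, and of Gata4, are not shown. A few results that this rule would name are not reported here. Columns of the study's gene tables other than names were not used.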

Additional observations from a re-analysis of the deposited data

How the results depend on the processing

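No paired analysis was possible because all peak values come from merged libraries, and leaving out a library could not be done for the same reason. Of 164 alternative values, 118 stayed within the reported value's interval (1.5 times for the number of peaks) and 42 moved outside it. The other 4, in units of pileup or −log10 p, were compared by sign alone, and no value changed direction. Differences between medians under settings other than pileup and −log10 p were added after seeing the data.

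A window of 25 bp on each side gave a median fold of 11.7, with differences of -1.89 from composites and 0.802 from peaks with an E-box alone. A window of 100 bp left 1456 peaks with a median fold of 10.4. AGATAA as the sole motif left 1564 with a median of 11.2. A limit of 50 on −log10 q left 969, with a median of 22.3, a difference of -4.31 from composites and a neighbour within 10 kb at 20.3%. Keeping those with a fold of at least 10 left 1394, with a median of 17.2 and a neighbour at 22.4%. The neighbour share was 19.95% within 5 kb and 64.6% within 50 kb. The reported differences in median fold were -2.49 and 1.31, and pileup or −log10 p in place of fold kept both signs. Both filters on strength also select on the value described. Under each of them the interval of the difference from peaks with an E-box alone reached below 0. Depth limits what single peaks show, since at the lower quartile of 36 fragments counting error alone spans 25.2 to 49.8.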
